A study of Mus musculus with 24 samples.

Results

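The 10 genes described here are Nfe2l2, which encodes the transcription factor NRF2, its inhibitor Keap1, and 8 NRF2 targets (Gclc, Gclm, Gss, Gsr, Nqo1, Txnrd1, Srxn1, Osgin1), most of which make or recycle glutathione and other thiols. They and the gene lists further below were chosen by name, with earlier results of these data known. Each of the 10 genes matched 1 row of the 55536 rows of the deposited table. The 24 libraries came from livers of wild-type Balb/c mice, 6 weeks old: 8 healthy controls (Con), 8 with acute pancreatitis (AP) and 8 with severe acute pancreatitis (SAP), which can injure distant organs such as the liver. The inducing agent, the time of sampling and the sex were not given in the sources used here. No label states that every library is a mouse of its own, so the p-values refer to the spread over libraries, which may be technical, and "liver" below means library.

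NRF2, encoded by Nfe2l2, is a transcription factor of the cap'n'collar family. KEAP1, the adaptor of a CUL3 and RBX1 ubiquitin ligase, holds NRF2 and has it degraded, and electrophiles or oxidants that react with KEAP1 cysteines let NRF2 accumulate and bind antioxidant response elements together with a small MAF protein. Much of this control acts on the protein, which RNA levels do not show. In liver the targets supply glutathione, the main soluble thiol: glutamate-cysteine ligase (catalytic subunit Gclc, modifier subunit Gclm) carries out the limiting step, glutathione synthetase (Gss) completes it, and glutathione reductase (Gsr) returns the oxidised form to use.

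The antioxidant response element has the core TGACNNNGC, and a form with G at the fourth base, TGAGNNNGC, also occurs. Both were searched on both strands of RefSeq promoters (GRCm38.p6, 250 bases before to 50 bases after a gene's start). Of the 10 members, 8 had a promoter in that table, and Gclc and Gsr are named only. Matches were found in 5 members. They are shown because in SAP livers their genes did not move together: Nfe2l2 and Txnrd1 were higher, Gclm and Osgin1 lower, and Srxn1 did not pass the test. Each line gives 27 bases on the gene's strand, 5′ to 3′, with the match in capitals.

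Srxn1 (chr2:152105470-152105496, plus strand, match begins 45 bases before the start): aattcacccTGAGTCAGCggccgggcg

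Srxn1 (chr2:152105357-152105383, plus strand, match begins 158 bases before the start): ctactgagaGCCGACTCAtcctctctg

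Srxn1 (chr2:152105543-152105569, plus strand, match begins after the start): cagtgggcaGCTAGGTCAgagtgagac

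Osgin1 (chr8:119437039-119437065, plus strand, match begins 99 bases before the start): ggggcccctGCTGACTCAcgcttatga

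Gclm (chr3:122245414-122245440, plus strand, match begins 134 bases before the start): ctcccgggcGCACCGTCAactctcacg

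Txnrd1 (chr10:82859105-82859131, plus strand, match begins 92 bases before 1 of 3 listed starts): tggatttttGCTTTGTCAttctgacac

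Nfe2l2 (chr2:75704886-75704912, minus strand, match begins 240 bases before the start): cagcccaccTGACTCCGCcatgccccg

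The Srxn1 match nearest upstream of the start and the Osgin1 match also hold the letters of an AP-1 site (TGAGTCA or its reverse complement TGACTCA). One or other motif was in 5 of the 10 promoter entries of members, against 27.8% of all 32851 entries (TGACNNNGC in 12.4%, TGAGNNNGC in 17.6%). A match is a string of letters and shows no binding. The windows of Keap1, Gss and Nqo1 hold neither string, but bases outside the windows were not searched, so these genes may hold one elsewhere.

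Expression was deposited as TPM, transcript abundance that is divided by length and scaled to a fixed total, so levels can be set beside each other between genes, but a rise of abundant transcripts lowers all others and the read depth is unknown. Libraries summed to between 986423 and 993642 TPM. The limma test on log2(TPM + 1) covered the 10555 genes that averaged 1 TPM or more, all 10 members among them, and a Benjamini-Hochberg adjusted p under 0.05 counted as passing. Folds given below are those of TPM + 1 from this fit, and for low genes they can be smaller than the ratio of mean TPM. Between AP and Con 5.48% of the genes passed, 459 higher and 119 lower, a split that became 388 and 265 after quantile normalization and 194 and 215 after rescaling without the 50 most abundant genes. Between SAP and Con 74.0% passed, 4661 higher and 3147 lower (3888 and 4300 after library medians were centred), and between SAP and AP 72.1%, 4332 higher and 3275 lower (3708 and 4278). The median log2 difference of all tested genes was 0.06, 0.21 and 0.13 in these 3 comparisons, and -0.06 for SAP against Con after centring, so differences of members in SAP are also given relative to that median. Mitochondrial transcripts took 12.5 to 22.2% of TPM in Con, 7.81 to 13.7% in AP and 2.80 to 6.26% in SAP.

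The livers held hepatocyte RNA in all groups: 8 hepatocyte markers (Alb, Apoa1, Ttr, Cps1, Hnf4a, Cyp2e1, Tat, F2) summed to 39876 to 49967 TPM in Con, 38882 to 53543 in AP and 37423 to 49622 in SAP. These sums are mostly Alb and Apoa1. Of the 8 markers 4 were higher in SAP than in Con, 2 were lower and 2 did not pass. Summed markers of neutrophils (9 genes) rose from 2.71 to 28.3 TPM in Con to 127.8 to 360 TPM in SAP, with 3.18 to 7.58 TPM in AP, and the 4 of them that were tested were higher in SAP than in Con. Of these, Retnlg (0.175 TPM in Con, 5.63 TPM in SAP) and Ngp (0.0363 and 6.39 TPM) reached the filter on low values through SAP alone, so their calls are no support. Markers of stellate cells (6 genes) spanned 21.5 to 41.1 TPM in Con and 50.6 to 117 TPM in SAP, and of cholangiocytes (5 genes) 12.3 to 25.9 and 23.7 to 80.1 TPM (of the tested genes 2 of 4 and 1 of 2 were higher, 2 and 0 lower), while Kupffer cell and macrophage markers (9 genes) spanned 68.2 to 277 and 59.1 to 108 TPM (1 of 8 tested genes higher, 6 lower). The stellate cell sum was mostly Dcn (means 23.1 TPM in Con and 80.3 TPM in SAP) and the cholangiocyte sum mostly Spp1 (15.2 and 48.4 TPM). Sinusoidal endothelial (6 genes, 26.5 to 62.3 and 14.7 to 64.7 TPM), lymphocyte (7 genes, 1.07 to 4.16 and 0.68 to 2.21 TPM) and red cell markers (5 genes, 176 to 626 and 79.2 to 277 TPM) overlapped between Con and SAP in their sums. Single genes of these lists passed nonetheless: among 5 tested sinusoidal markers Lyve1 and Stab2 were higher (log2 differences 3.10 and 1.66) and Clec4g (-2.21) and Fcgr2b (-0.84) lower, and among 5 red cell markers Alas2 was lower (-1.58). Of these genes only Fcgr2b overlapped between Con and SAP (12.24 to 23.75 and 3.68 to 24.28 TPM). Lyve1, at 0.301 TPM in Con, also reached the filter only through SAP. No lymphocyte marker was abundant enough to be tested. Exocrine pancreas markers (7 genes) summed to at most 1.01 TPM in any liver, with Cel at 0 in every Con and Cpa1 at 0 in every SAP library. In bulk RNA, fewer cells of a type and less RNA per cell cannot be told apart, and the part of these cell types in the values below was not tested. Libraries SAP 26 to 29 stood apart from SAP 21, 22, 24 and 25 over many genes, and Con 3 stood high among controls. Results of single members that rest on them are given with and without them. The SAP values of the ratios cover all 8 SAP livers, although Keap1 and Gss did not overlap between these sets. For genes of the lists further below the SAP values also cover all 8 SAP livers, although some, such as Cth, Glrx and Hagh, did not overlap between these sets.

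In SAP livers members differed from Con in both directions, as did the tested genes at large. Of 10 members, 7 passed between SAP and Con, a share near the 74.0% of all tested genes, with 3 higher (Nfe2l2, Gsr, Txnrd1; 44.2% of genes were higher) and 4 lower (Gclc, Gclm, Nqo1, Osgin1; 29.8% were lower), while Keap1, Gss and Srxn1 did not pass. In 6 members the SAP and Con livers did not overlap (37.8% of all tested genes), 2 of them higher (23.2%) and 4 lower (14.6%). The median log2 difference of the members was 0.02, against 0.21 for all tested genes. The transcription factor's own RNA was 3.97-fold higher while the RNA of both subunits of glutamate-cysteine ligase was 2.03-fold and 3.00-fold lower.

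**Figure D1:**
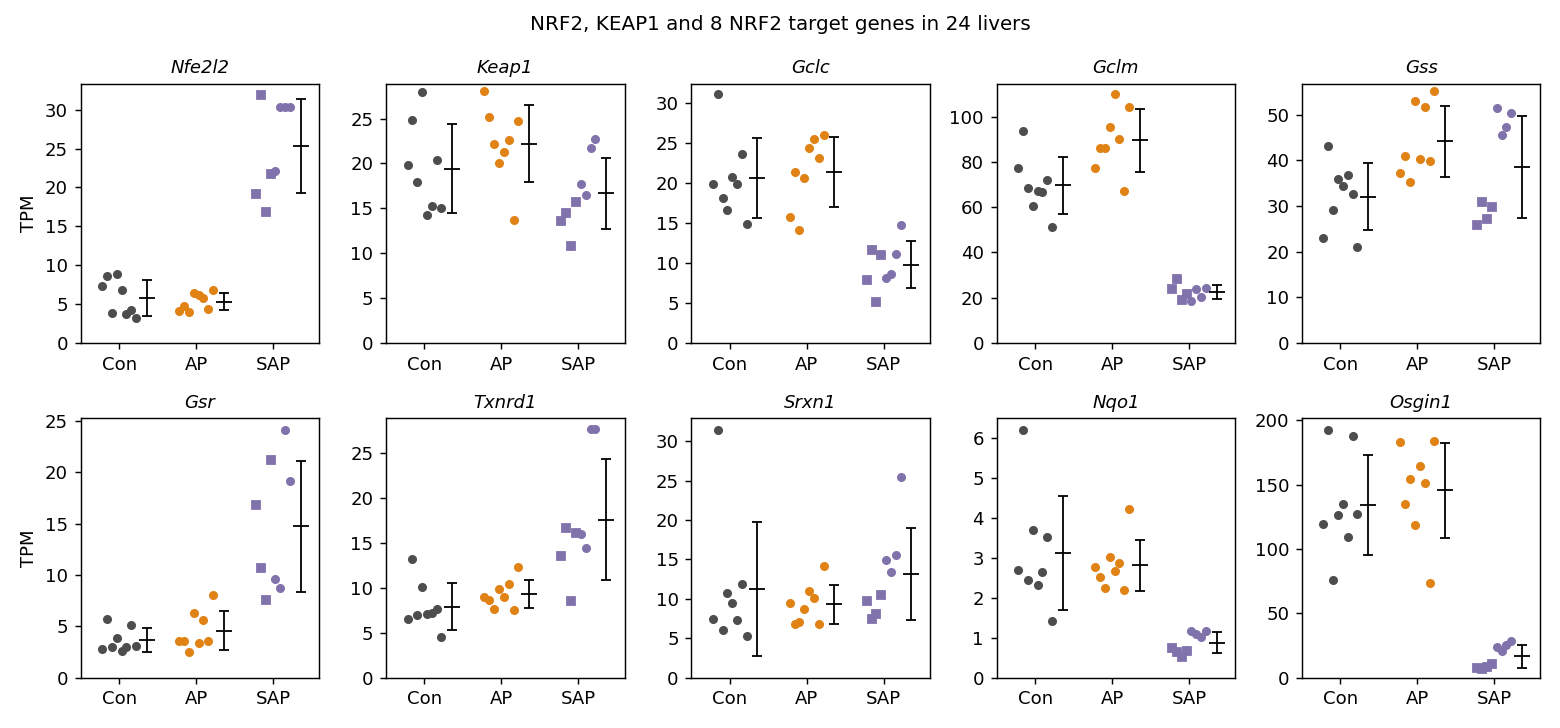
TPM of each member in every liver, by group (points, 8 livers a group; squares are SAP 21, 22, 24 and 25), with the mean and SD beside them. Nfe2l2 lies between 16.83 and 31.91 TPM in SAP, above every Con and AP liver, and Osgin1 between 6.70 and 28.86 TPM, below all of them.

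Nfe2l2 was at 3.17, 5.55 and 8.88 TPM in Con (lowest, median, highest), at 3.99, 5.24 and 6.80 TPM in AP, and at 16.83, 26.22 and 31.91 TPM in SAP. All 8 SAP livers lay above every other liver. Against Con the log2 difference was 1.99 ± 0.19 (SE; 1.78 above the median of all genes; limma adjusted p = 6.38e-10), and against AP 2.05 ± 0.19 (adjusted p = 4.24e-10). Among tested genes it stood at the 54.8th percentile of level in Con and at the 80.5th in SAP.

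Keap1, the inhibitor, did not pass between SAP and Con. It was at 14.22, 18.89 and 27.92 TPM in Con, 13.67, 22.38 and 28.03 TPM in AP, and 10.80, 16.10 and 22.70 TPM in SAP, with overlap between all groups. The log2 difference of SAP from Con was -0.21 ± 0.16 (adjusted p = 0.237), or -0.42 relative to the median of all genes, and it passed as lower once library medians were centred (-0.48, adjusted p = 0.000134) after quantile normalization (-0.42, adjusted p = 0.00122) or without mitochondrial transcripts (-0.41, adjusted p = 0.0192). Against AP it was lower in SAP (-0.40 ± 0.16, adjusted p = 0.0259), a call that ended without SAP 24 (adjusted p = 0.0644) or AP 11 (0.0567) and without the 50 most abundant genes (0.0845). Its exons overlap those of Gm16754 on the opposite strand, 13.0% of its 50-base windows occur in other genes, and no strand setting is given in the sources used here, so reads of the partners may be mixed.

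Keap1 and Nfe2l2 changed places within livers. The ratio of Keap1 to Nfe2l2 TPM, which does not depend on how a library is scaled, had a geometric mean of 3.50 in Con (2.09 to 4.77), 4.21 in AP (3.15 to 6.77) and 0.658 in SAP (0.454 to 0.801). Keap1 exceeded Nfe2l2 in every Con and AP liver and lay below it in every SAP liver. SAP differed from Con (log2 difference -2.41, exact permutation test, two-sided, p = 0.000155, which is the lowest reachable with 8 livers against 8, adjusted p = 0.000466 over 12 ratio tests) and from AP (-2.68, the same exact p), and AP did not pass against Con (0.27, exact permutation p = 0.240, adjusted p = 0.262).

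The ligase that limits glutathione synthesis fell in both subunits. Gclc, which carries the catalytic site, was at 14.86, 19.86 and 31.06 TPM in Con, 14.15, 22.20 and 25.92 TPM in AP, and 5.15, 9.83 and 14.71 TPM in SAP. Every SAP liver was below every Con liver, by a narrow gap, and 7 of 8 were below every AP liver. The log2 difference from Con was -1.02 ± 0.17 (-1.24 relative to the median of all genes, limma adjusted p = 7.57e-06).

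Gclm, which lowers the feedback inhibition of the catalytic subunit by glutathione, was the member with the largest F over the 3 groups. It was at 51.27, 67.91 and 93.91 TPM in Con, 67.15, 88.24 and 110.13 TPM in AP, and 18.60, 22.73 and 28.10 TPM in SAP. SAP livers formed a tight set below all others, and the 3 highest AP livers exceeded every control. The log2 difference was -1.59 ± 0.12 for SAP against Con (adjusted p = 1.23e-11) and -1.95 ± 0.12 for SAP against AP (adjusted p = 2.79e-13). For AP against Con it was 0.36 ± 0.12 and did not pass (adjusted p = 0.0718), though it did without Con 3 (0.43, adjusted p = 0.0254) or AP 18 (0.42, 0.0481). Gclm exons overlap Gm17494 on the opposite strand and Gm6061 on its own, and 3.03% of its windows occur elsewhere.

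The ratio of Gclc to Gclm differed between all 3 groups. It had a geometric mean of 0.292 in Con (0.256 to 0.331), 0.235 in AP (0.164 to 0.344) and 0.421 in SAP (0.272 to 0.608), with overlap in each pair of groups. The log2 difference was 0.53 for SAP against Con (exact permutation p = 0.00357, adjusted p = 0.00536), -0.31 for AP against Con (p = 0.0218, adjusted p = 0.0261) and 0.84 for SAP against AP (p = 0.000777, adjusted p = 0.00187), all by exact permutation.

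Gss, the second enzyme of the synthesis, did not follow the ligase. It was at 21.11, 33.48 and 43.20 TPM in Con, 35.19, 40.60 and 55.08 TPM in AP, and 25.87, 38.14 and 51.44 TPM in SAP. The groups overlapped, and in SAP the livers fell into a low and a high set. Gss did not pass in SAP against Con (0.24 ± 0.17, interval -0.10 to 0.59, adjusted p = 0.193), in SAP against AP (-0.23 ± 0.17, adjusted p = 0.229) or in AP against Con (0.47 ± 0.17, adjusted p = 0.0996). With centred medians it passed as lower in SAP than in AP (-0.45, adjusted p = 0.0014). The Gclc to Gss ratio had a geometric mean of 0.644 in Con, 0.479 in AP and 0.252 in SAP. It was lower in SAP than in Con with no overlap (log2 difference -1.35, exact permutation p = 0.000155, adjusted p = 0.000466) and lower in AP than in Con with overlap (-0.43, exact permutation p = 0.00699, adjusted p = 0.00932). Gss exons overlap Acss2 and 2 antisense transcripts on the opposite strand, and 8.05% of its windows occur in other genes.

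**Figure D2:**
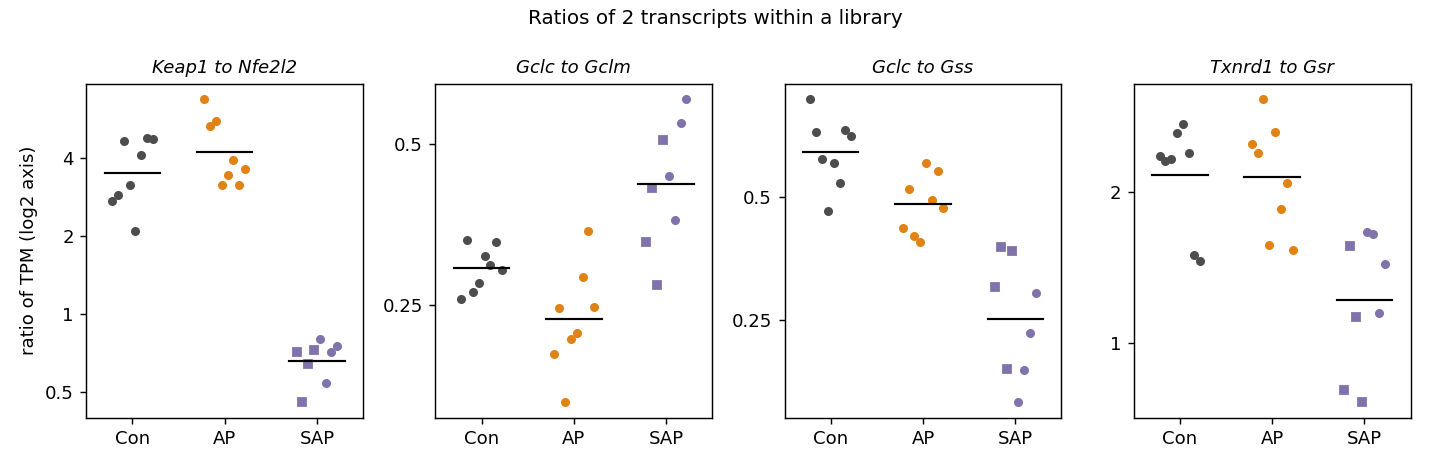
Ratio of the TPM of 2 transcripts within each liver, on a log2 axis, by group (points, 8 livers a group; squares are SAP 21, 22, 24 and 25; lines are geometric means). The Keap1 to Nfe2l2 ratio is 2.09 to 6.77 over the Con and AP livers and 0.454 to 0.801 over the SAP livers.

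Gsr and Txnrd1 were higher in SAP. Gsr, which reduces glutathione disulphide with NADPH, was at 2.56, 3.06 and 5.69 TPM in Con, 2.48, 3.595 and 8.03 TPM in AP, and 7.54, 13.75 and 24.18 TPM in SAP. Every SAP liver was above every control, and 7 of 8 were above every AP liver. The log2 difference from Con was 1.69 ± 0.23, a 3.23-fold rise (limma adjusted p = 3.34e-07), and the SAP livers were widely spread.

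Txnrd1, the cytosolic selenoenzyme that reduces thioredoxin, was at 4.54, 7.10 and 13.17 TPM in Con, 7.49, 8.96 and 12.33 TPM in AP, and 8.49, 16.02 and 27.66 TPM in SAP. All SAP livers but SAP 24 lay above every control. It rose 2.04-fold over Con (log2 difference 1.03 ± 0.19, adjusted p = 3.65e-05) and 1.72-fold over AP (0.78 ± 0.19, adjusted p = 0.000826). The ratio of Txnrd1 to Gsr went from 2.16 in Con and 2.15 in AP to 1.22 in SAP (geometric means; log2 difference of SAP from Con -0.83, exact permutation p = 0.00202, adjusted p = 0.00346), so Gsr rose by more.

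Srxn1, sulfiredoxin, which repairs over-oxidised peroxiredoxins, did not pass in any comparison. It was at 5.32, 8.51 and 31.46 TPM in Con, 6.85, 9.09 and 14.18 TPM in AP, and 7.49, 11.92 and 25.43 TPM in SAP, and the highest liver of all was a control, Con 3. The log2 difference of SAP from Con was 0.32 ± 0.27 (interval -0.23 to 0.86, adjusted p = 0.282). Without Con 3 it was 0.55 and passed (adjusted p = 0.0237).

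Nqo1 and Osgin1 fell in SAP. Nqo1, a quinone reductase widely used as a readout of NRF2 activity, was at 1.41, 2.68 and 6.22 TPM in Con, 2.21, 2.73 and 4.23 TPM in AP, and 0.53, 0.885 and 1.17 TPM in SAP. No SAP liver reached any Con or AP liver. The fitted log2 difference was -1.08 ± 0.16 (adjusted p = 1.39e-06), which understates a low gene: the group means differed by 3.55 times. With a mean of 0.880 TPM in SAP it passed the filter on low values through Con and AP, and in SAP it stood at the 7.00th percentile of tested genes.

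Osgin1, an oxidative stress-induced growth inhibitor and NRF2 target, was the most abundant member in Con and AP and had the largest difference. It was at 75.63, 126.88 and 192.28 TPM in Con, 73.79, 152.78 and 183.86 TPM in AP, and 6.70, 15.93 and 28.86 TPM in SAP. All SAP livers were far below all others. It fell 8.44-fold against Con (log2 difference -3.08 ± 0.27, adjusted p = 3.07e-10) and 9.18-fold against AP (-3.20 ± 0.27, adjusted p = 1.75e-10). The size depended on the set of SAP livers: against Con it was -2.34 without SAP 21, 22, 24 and 25 (adjusted p = 1.54e-08) and -3.81 without SAP 26 to 29 (adjusted p = 1.91e-11), and against AP -2.46 and -3.93.

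The order of the members by mean TPM therefore changed. In Con it ran from Osgin1 (134) over Gclm (69.7), Gss (32.0), Gclc (20.6), Keap1 (19.4), Srxn1 (11.2), Txnrd1 (7.90), Nfe2l2 (5.83) and Gsr (3.63) to Nqo1 (3.13). In SAP it ran from Gss (38.5) over Nfe2l2 (25.3), Gclm (22.4), Txnrd1 (17.5), Keap1 (16.7), Osgin1 (16.6), Gsr (14.7), Srxn1 (13.1) and Gclc (9.76) to Nqo1 (0.880). Neighbours from Gclc down to Nqo1 in Con, and from Nfe2l2 down to Gclc in SAP, differed by less than the larger of their SDs. AP had the order of Con except that Keap1 (22.2) stood before Gclc (21.3), and there the pairs Keap1 and Gclc, Srxn1 and Txnrd1, Nfe2l2 and Gsr, and Gsr and Nqo1 differed by less than the larger SD. These neighbour differences were not tested.

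Between AP and Con none of the 10 members passed in limma, against 5.48% of all tested genes (4.35% higher, 1.13% lower), and 2 had an unadjusted p under 0.05 (Gclm and Gss). No member's groups separated fully, where 0.748% of all tested genes did (0.644% higher, 0.104% lower). The median log2 difference of the members was 0.16, against 0.06 for all tested genes. The intervals for Nfe2l2 (-0.44 to 0.32), Nqo1 (-0.39 to 0.27) and Gclc (-0.30 to 0.40) hold neither a rise nor a fall of 1 on the log2 scale. Under other settings the number that passed was 1 with centred medians (Gss, limma adjusted p = 0.0289) and 2 with array weights (Gclm and Gss). It was 1, again Gss, without SAP 21, 22, 24 and 25 (adjusted p = 0.0402) or without SAP 26 to 29 (0.0379). Leaving out 1 library gave 0 or 1.

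Between SAP and AP 8 of 10 members passed, against 72.1% of all tested genes, 3 higher (41.0% of genes) and 5 lower (31.0%). This comparison shares the SAP livers with SAP against Con. Gclm was 3.86-fold lower in SAP than in AP and 3.00-fold lower than in Con. Keap1 passed against AP only, and Gss, at 0.24 against Con and -0.23 against AP, passed in neither. In 4 members the groups did not overlap (Nfe2l2, Gclm, Nqo1, Osgin1), against 37.3% of all tested genes, 1 higher (22.0%) and 3 lower (15.2%).

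**Figure D3:**
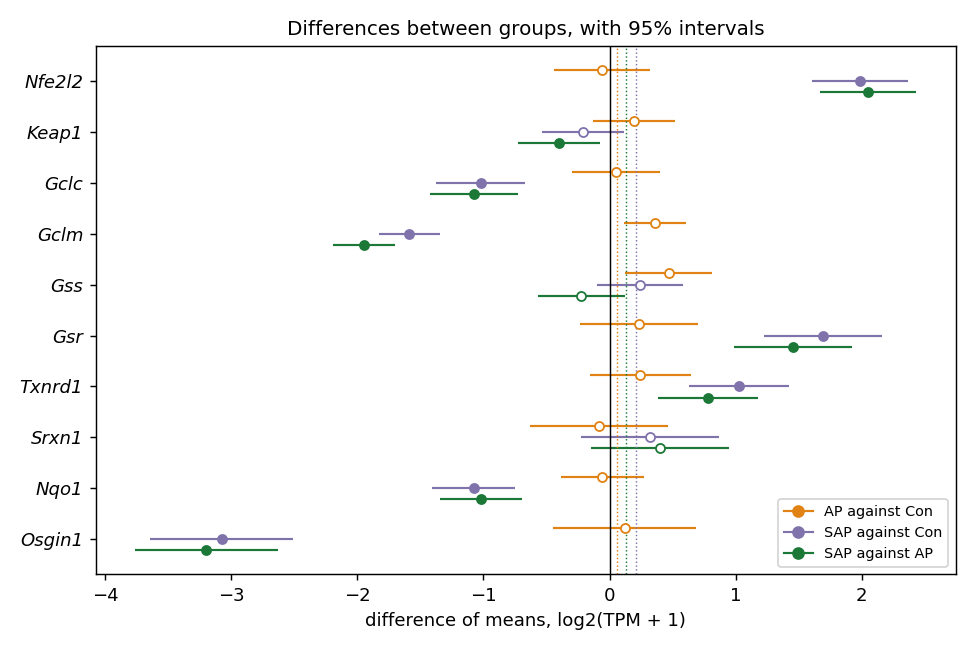
Difference of group means in log2(TPM + 1) for each member in 3 comparisons, with 95% intervals from limma; filled points passed, and dotted lines are the median of all tested genes. Osgin1 lies at -3.08 and Nfe2l2 at 1.99 for SAP against Con, while the AP against Con points lie between -0.08 and 0.47.

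The SAP livers were not alike. Libraries SAP 26 to 29 and SAP 21, 22, 24 and 25 stand apart across the transcriptome, a division by title numbers that was noticed in the values and that no label explains, so it is described with no test. In 5 of 10 members the sets did not overlap, all 5 higher in SAP 26 to 29, where 28.5% of all tested genes were higher without overlap and 4.84% lower. Osgin1 was at 20.94 to 28.86 TPM in SAP 26 to 29 and 6.70 to 10.91 TPM in the other set, and Gss at 45.47 to 51.44 against 25.87 to 30.80 TPM. Nqo1 was at 1.03 to 1.17 against 0.53 to 0.74 TPM, Srxn1 at 13.38 to 25.43 against 7.49 to 10.45 TPM and Keap1 at 16.46 to 22.70 against 10.80 to 15.74 TPM.

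Nfe2l2, Gclc, Gclm, Gsr and Txnrd1 overlapped between the sets. The calls of Gss, Srxn1 and Keap1 changed with the set left out. Without SAP 21, 22, 24 and 25 Gss was higher than in Con (0.62, limma adjusted p = 0.00203) and so was Srxn1 (0.74, adjusted p = 0.0381). Without SAP 26 to 29 neither passed (-0.14 and -0.11, adjusted p = 0.467 and 0.765), and Keap1 passed as lower (-0.46, adjusted p = 0.0292). Against AP, Gss passed as lower without SAP 26 to 29 (-0.61, adjusted p = 0.00288). Without SAP 21, 22, 24 and 25 Srxn1 passed as higher than in AP (0.83, adjusted p = 0.0236) and Keap1 no longer passed (-0.16, adjusted p = 0.446). The 7 members that passed with all libraries also passed with either set left out.

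Single livers of the other groups stood high across members. Con 3 had the highest control value of 8 members (Gclc, Gclm, Gss, Gsr, Nqo1, Txnrd1, Srxn1, Osgin1), at a members' total of 450 TPM, against a control median of 293 TPM. Its summed neutrophil markers (28.3 TPM) and Kupffer cell and macrophage markers (277 TPM) were also the highest of the controls, and its share of mitochondrial transcripts (12.5%) the lowest. Con 10 was lowest in 7 members. In AP, AP 19 was highest in 8 members and AP 18 lowest in 6, with mitochondrial shares of 9.30% and 9.57%. Whether these markers or shares bear on the members' levels was not tested.

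Genes with the profile most like a member were found for Gclm, Osgin1 and Nfe2l2, the members with the largest F, as the smallest mean absolute difference of centred log2 values over the 24 livers. Nearest to Gclm were Tmem223, Abhd1 and Sirt3, at 0.19 to 0.20 log2 units per liver, where the median gene with a mean of at least 5 TPM was at 0.87. Nearest to Osgin1 were Cldn3, Abcc2 and Irf3 (0.26, 0.30 and 0.32, median gene 1.45). Abcc2, a canalicular export pump for glutathione conjugates, went from 27.6 ± 5.89 TPM in Con to 3.59 ± 2.20 TPM in SAP. Nearest to Nfe2l2 were Qrich1, Cttn and Epb41, at 0.22 to 0.23 (median gene 0.92).

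Of 10 regulators tested, 6 were higher in SAP than in Con, 1 lower and 3 did not pass, with a median log2 difference of 0.65. The 7 that passed are near the 74.0% of all tested genes (44.2% higher, 29.8% lower, median 0.21), beside which the next 3 lists are also to be read. Cul3, the scaffold of the ligase that KEAP1 serves, rose from 4.95 ± 1.63 to 22.7 ± 5.87 TPM (limma adjusted p = 4.25e-10). The rise was 4.02-fold in the fit on TPM + 1 and 4.59-fold between the mean TPM. Cul3 was the 1 regulator of 10 that passed in AP, where 4.35% of all tested genes were higher. It was at 8.34 ± 2.71 TPM there (adjusted p = 0.0372), a call lost in 9 of 24 fits that each left out 1 library. Rbx1, the RING subunit of that ligase, fell from 63.4 ± 7.04 to 31.5 ± 6.14 TPM (adjusted p = 2.33e-08). Gsk3b, a kinase that marks NRF2 for another ligase, rose from 2.74 ± 0.457 to 5.87 ± 0.965 TPM (adjusted p = 1.42e-07).

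Of the 3 small MAF genes, whose proteins pair with NRF2 on DNA, Maff and Mafk were higher in SAP than in Con, and Mafg did not pass (0.49 ± 0.28, limma adjusted p = 0.114). These genes and Bach1 were chosen for mention after their values were seen. Maff rose from 0.71 to 2.05 TPM over the Con livers to 4.06 to 31.49 TPM over the SAP livers (limma adjusted p = 1.78e-07), and Mafk from 2.86 ± 0.655 to 7.36 ± 2.25 TPM (adjusted p = 1.06e-06). Bach1, a repressor that binds the same elements, rose from 1.30 ± 0.276 to 3.22 ± 1.37 TPM (adjusted p = 7.80e-05).

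Of 24 other NRF2 targets listed, 21 were tested, and in SAP against Con 12 were lower, 6 higher and 3 did not pass, with a median log2 difference of -0.998 (all tested genes, 29.8% lower, 44.2% higher, median 0.21). Gstm3, a glutathione transferase, was at 24.0 ± 8.32 TPM in Con, 6.69 ± 2.93 TPM in AP and 0.305 ± 0.175 TPM in SAP, lower in AP (limma adjusted p = 8.18e-05) and in SAP (6.44e-15), although 30.8% of its windows occur in other genes. It passed the filter on low values through Con and AP. The fall in SAP was 18.4-fold in the fit on TPM + 1 and 78.5-fold between the mean TPM. Tkt, transketolase of the pentose phosphate pathway, which supplies NADPH, fell from 74.8 ± 7.05 to 23.7 ± 4.94 TPM (adjusted p = 6.87e-13). Hmox1, haem oxygenase and also a target of the repressor BACH1, rose from 6.15 ± 4.05 to 40.1 ± 14.0 TPM (adjusted p = 1.37e-09). The ferritin chains parted, with Fth1 2.85-fold higher and Ftl1 2.66-fold lower, the latter uncertain, with 75.3% of its windows shared with others. Taldo1, Pgd, G6pdx, Hmox1, the ferritins and Gstm1 were chosen after their values were seen. In AP Gstm1 and Gstm3 fell and the other 19 did not pass, against 1.13% lower and 4.35% higher of all tested genes. Gstm1 went from 2250 ± 319 to 1112 ± 261 TPM (adjusted p = 0.0119), with 21.7% of its windows shared.

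Of 17 listed genes that use, break down or feed glutathione, 16 were tested, and in SAP against Con 8 were higher, 5 lower and 3 did not pass, with a median log2 difference of 0.51, and these shares are near the 44.2% higher and 29.8% lower of all tested genes. Chac1, a glutathione-degrading enzyme induced by stress, rose from 0.679 ± 0.306 to 27.6 ± 11.8 TPM (limma adjusted p = 5.88e-14), but with 0.769 TPM in AP it passed the filter on low values only through SAP, where it is high, and so had to differ. It is among the 8 counted as higher, where its call is no support. Its constitutive relative Chac2 fell from 17.3 ± 2.35 to 0.946 ± 0.914 TPM (adjusted p = 4.25e-14). Every SAP liver was below every control for Chac2, where 14.6% of all tested genes were lower without overlap. Chac2, under 1 TPM in SAP, passed the filter through Con and AP. Hagh, which releases glutathione in methylglyoxal detoxification, fell from 251.5 ± 38.5 to 46.3 ± 16.7 TPM (adjusted p = 1.14e-12).

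Transcripts of cysteine synthesis were lower in SAP. Cbs and Cth, the enzymes that make cysteine from homocysteine, went from 109 ± 23.3 to 44.4 ± 6.39 TPM (limma adjusted p = 2.65e-09) and from 92.6 ± 23.6 to 14.2 ± 10.9 TPM (adjusted p = 1.21e-08). Slc3a2, a heavy chain of several amino acid transporters and of the cystine transporter among them, rose from 20.1 ± 6.30 to 63.2 ± 19.8 TPM (adjusted p = 2.47e-08). Slc7a11, the light chain of the cystine transporter, averaged 0.0350 TPM in Con and 0.129 TPM in SAP, too low to be tested. Glrx, a glutathione-dependent reductase, rose 3.80-fold (adjusted p = 6.88e-10) and the plasma peroxidase Gpx3 4.86-fold (adjusted p = 2.72e-10). In AP Gpx1, an abundant peroxidase, rose from 967 ± 347 to 1688 ± 470 TPM (adjusted p = 0.0220) and Glrx5, a mitochondrial glutaredoxin, from 24.9 ± 6.92 to 39.9 ± 12.4 TPM (adjusted p = 0.0345). Of the 16 tested genes of the glutathione list 2 were higher in AP and 0 lower, against 4.35% and 1.13% of all tested genes. The genes of this paragraph were picked with their values in view.

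Among 12 thioredoxins, peroxiredoxins and related reductases 5 were higher and 5 lower in SAP than in Con, with a median log2 difference of -0.08, against 44.2% higher and 29.8% lower over all tested genes. Prdx2, a cytosolic peroxiredoxin whose exons overlap Junb and Rnaseh2a on the opposite strand, fell from 165 ± 26.2 to 49.7 ± 4.39 TPM (limma adjusted p = 1.33e-12). The mitochondrial Txnrd2 fell from 16.6 ± 2.55 to 8.95 ± 1.31 TPM (adjusted p = 4.74e-08) and Txn2 from 126 ± 12.9 to 74.8 ± 13.2 TPM (adjusted p = 1.34e-06). The list did not split by compartment. Cytosolic Txn1 was also lower (255 ± 60.8 to 192 ± 21.1 TPM, adjusted p = 0.0042), and mitochondrial Prdx3 was higher (28.1 ± 7.43 to 42.6 ± 11.1 TPM, adjusted p = 0.00487). In AP 4 of the 12 rose and 0 fell, against 4.35% higher and 1.13% lower of all tested genes. These were Prdx3, Prdx6, Msra and Msrb1 (1.40-fold to 1.59-fold, limma adjusted p from 0.0308 to 0.0438). They were chosen after their values were seen, as was Txn1. All 4 calls ended when TPM was rescaled with the 50 most abundant transcripts removed (adjusted p from 0.0556 to 0.127). The AP calls of these 4 genes, Cul3, Gpx1 and Glrx5 each ended when any one of Con 1, Con 7, Con 10, AP 15, AP 17 or AP 19 was left out (adjusted p from 0.0511 to 0.115).

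**Figure D4:**
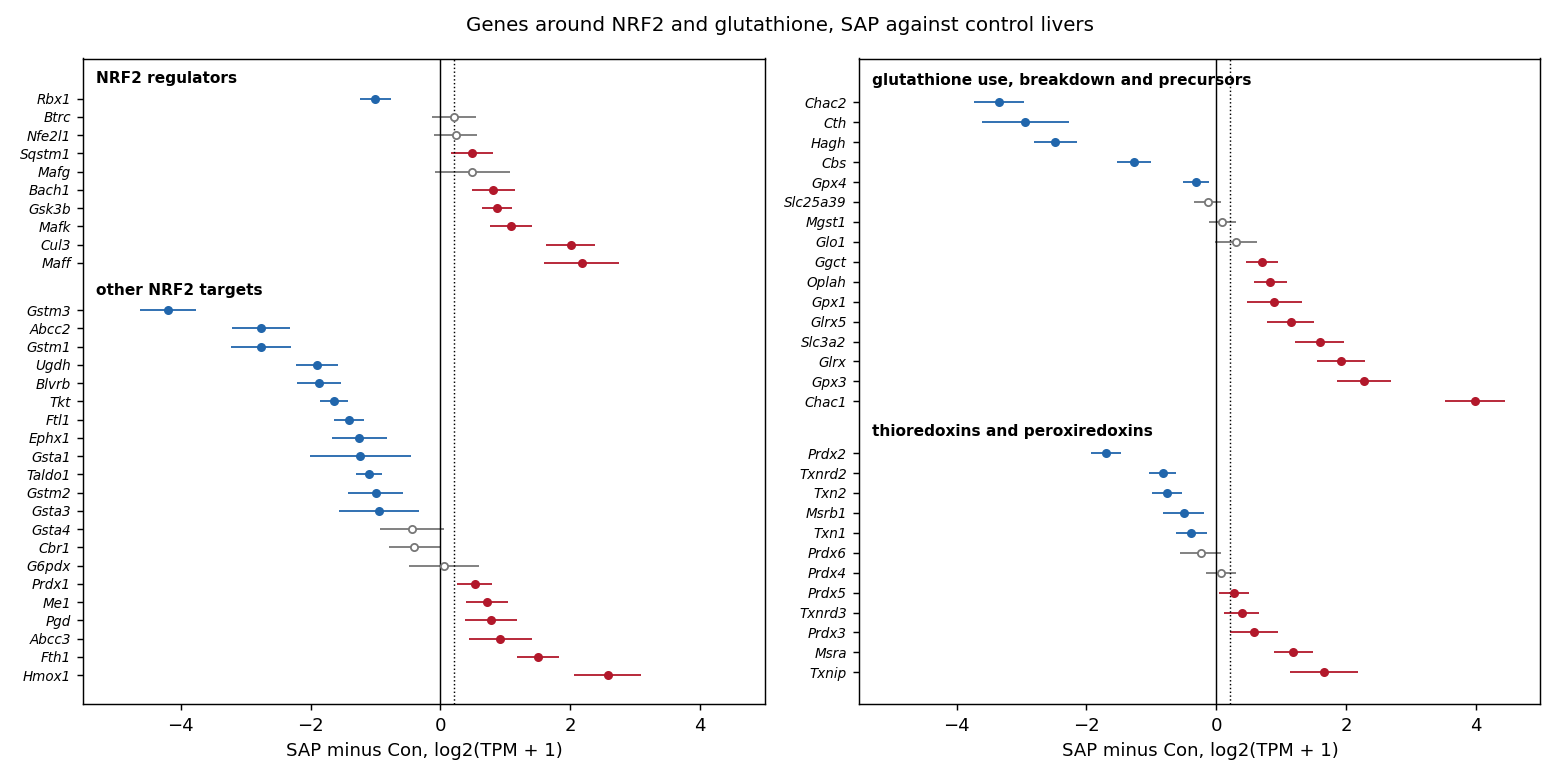
Difference of SAP from Con livers in log2(TPM + 1) for the tested genes of 4 lists, with 95% intervals from limma (red higher, blue lower, open grey not passed; dotted line, the median of all tested genes at 0.21). Chac1 (0.679 TPM in Con) lies at 3.99 and Gstm3 (0.305 TPM in SAP) at -4.20, the ends of the range. For such low values TPM + 1 makes the difference smaller.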

How the data were processed

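The authors deposited 1 table of TPM with 55536 rows named by symbol and 24 libraries. The unit was read from the values: libraries sum to just under 1000000, and among genes at 0 in at least 12 libraries the smallest value above 0 had a median of 0.17 for 1680 genes of 300 to 600 bases and 0.01 for 1665 genes of 3000 to 6000 bases. RNA was extracted with Trizol from frozen liver, per the labels' protocols. Per the submitters' processing notes edgeR was used, while aligner, build, annotation and strand setting were not given in the sources used here. TPM keeps no depth, so no counting interval is given.

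Columns were mapped to samples by title, and 0 were left unmapped. The fit used limma (version 3.58.1, R 4.3.3), its intensity trend and log2(TPM + 1), with group as the factor over 24 libraries and 21 residual degrees of freedom. It left out 44981 genes that averaged under 1 TPM, and p-values were adjusted by Benjamini-Hochberg over 10555 genes. The fit was tested on simulated data. Ratios were compared by exact permutation over 12870 arrangements, adjusted over 12 tests. Members and lists were chosen with earlier results of these data known. Named genes were all members, the 3 genes of each list with the largest F, all where 5 or fewer passed, the 3 nearest profiles, and others marked in the text. Shared sequence was counted in GENCODE M21 transcripts, whose gene names hold 99.81% of the table's.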

Additional observations from a re-analysis of the deposited data

Results flagged for a closer look

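Single livers were compared with the rest of their group for 40 of the named genes (120 groups of 8 livers), by the gap to the nearest liver as a share of the group's range (Dixon's test at 95%). Chance alone gives about 1 such group in 20. It was found in 8 groups, 3 of them in members. Srxn1 was at 31.46 TPM in Con 3, next to 11.82 TPM, and at 25.43 TPM in SAP 29, next to 15.52 TPM. Nqo1 was at 4.23 TPM in AP 19, next to 3.02 TPM. Con 3 also stood apart in Hmox1 (15.5 TPM, next 7.46) and Gpx3 (7.98 TPM, next 4.65). Of the other genes, Gsk3b was at 3.75 TPM in Con 9 (next 2.91), Chac2 at 23.28 TPM in AP 12 (next 18.24) and Maff at 31.49 TPM in SAP 22 (next 16.38).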

How the results depend on the processing

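The 7 members that passed in SAP against Con passed under all settings run, and 7 to 9 members passed there and in SAP against AP. AP against Con, with 578 genes (459 higher, 119 lower) and 0 members, moved most. It gave 1006 genes (747 and 259) and 1 member with centred medians, 384 (211 higher) without mitochondrial transcripts, 222 (160 and 62) with no filter, and 1458 (1252 and 206) and 2 members with array weights. Lower genes were 265 after quantile normalization, 76 with a pseudocount of 0.01 and 184 without SAP 26 to 29, and rescaling without the 50 most abundant genes gave 194 higher and 215 lower. It gave 1 member (Gss) when either set of SAP livers was left out. Leaving out 1 library gave 180 (without Con 7) to 841 genes (without Con 3), 135 to 715 higher, 45 to 146 lower, and 0 to 1 members. The cause was not tested.

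Signs turned only for members that had not passed. In AP against Con these were Gclc (-0.087, -0.081 and -0.051 after quantile normalization, without the 50 genes and without mitochondrial transcripts), Osgin1 (-0.061 and -0.014 under the first 2), and Nfe2l2 and Srxn1 (0.053 and 0.051 with array weights). Without SAP 21, 22, 24 and 25 Keap1 was at 0.037 against Con and Gss at 0.15 against AP. Without SAP 26 to 29 Gss and Srxn1 were at -0.14 and -0.11 against Con, and Srxn1 at -0.025 against AP. Centring put Gss at -0.034 against Con. The AP against Con ratio of Txnrd1 to Gsr was 0.0098 on log2(TPM + 1). Leaving out 1 library, AP against Con ranged from -0.15 to 0.024 for Nfe2l2, -0.0076 to 0.14 for Gclc, -0.16 to 0.066 for Nqo1, -0.19 to 0.15 for Srxn1 and -0.092 to 0.060 for that ratio.

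No paired analysis was possible because the groups share no replicate numbers. TPM holds no read depth, so the counting error of low genes such as Nqo1 is unknown.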
